A study of Mus musculus with 17 samples.

Results

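The fat pad beside the gonads (perigonadal white adipose tissue, pWAT), a visceral depot, was compared between 5 WT and 5 U9-KO female mice, which gave 10 of the 17 libraries of the study. The comparison took in every gene with a mean normalized count of at least 10 over these 10 libraries, 17792 of the 55401 genes listed, of which 14863 were protein-coding. Both groups were C57BL/6J mice of 16 weeks kept on standard chow without treatment, and they were littermates from crosses of heterozygous breeders. The U9-KO mice were homozygous for a deletion of all 5 exons of *U90926*, in every cell and from the start of life, so adipocyte and immune cell effects of the gene could not be separated by design. Each library came from 1 mouse and held RNA of the whole pad, with its adipocytes, vessels, immune cells and any attached reproductive tissue. In such bulk RNA, fewer cells of a type and less RNA per cell cannot be told apart.

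*U90926* is a long non-coding RNA that has been described as a repressor of adipocyte differentiation in culture and as an RNA of activated macrophages. White adipocytes store triglyceride, which they build from fatty acids taken up from blood or made within the cell from glucose by de novo lipogenesis. The lipogenic enzymes are driven mainly by the transcription factors SREBP-1c and ChREBP, and cholesterol synthesis by SREBP-2. Both programmes change strongly with feeding and insulin. The question addressed here was which genes and pathways outside the antibody genes differ between U9-KO and WT females, and by how much single mice of a genotype differ from each other.

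*U90926* (ENSMUSG00000029409) lies on chromosome 5 at 92209893 to 92215408 (GRCm38, minus strand). A single normalized count was listed for it in WT female 3, and 0 in the other 4 WT and all 5 U9-KO females. The gene was at the limit of detection in both groups, so the RNA values could not check the genotype labels. The nearest tested genes on the 2 sides did not differ between the groups beyond the spread. *Uso1*, a vesicle tethering factor gene, differed by 0.11 ± 0.10 (log2, SE, n = 5 and 5) and *Ppef2*, a phosphatase gene, by -0.04 ± 0.33. The promoter of the deleted gene is printed here with those of *Fasn* and *Insig1*, because the lipogenic and SREBP genes were the lists with the largest medians in this comparison. Each window runs from 250 bases before the RefSeq start to 50 bases after it (RefSeq, GRCm38.p6), and capitals mark CCAAT, the letters bound by NF-Y, and the E-box CACGTG, on either strand.
U90926, chr5:92215359-92215658, minus strand: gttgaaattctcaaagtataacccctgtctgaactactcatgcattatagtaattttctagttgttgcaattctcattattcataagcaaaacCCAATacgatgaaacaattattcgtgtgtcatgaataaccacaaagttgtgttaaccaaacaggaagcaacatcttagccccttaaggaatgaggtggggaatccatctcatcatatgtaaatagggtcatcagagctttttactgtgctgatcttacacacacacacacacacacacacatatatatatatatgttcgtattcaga
Fasn, chr11:120824498-120824797, minus strand: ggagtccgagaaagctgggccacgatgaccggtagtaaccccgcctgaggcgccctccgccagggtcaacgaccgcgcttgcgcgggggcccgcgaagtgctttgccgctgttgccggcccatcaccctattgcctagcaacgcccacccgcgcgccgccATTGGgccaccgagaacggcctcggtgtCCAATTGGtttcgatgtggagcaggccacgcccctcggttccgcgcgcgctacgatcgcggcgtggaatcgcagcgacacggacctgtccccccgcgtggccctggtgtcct
Insig1, chr5:28071162-28071461, plus strand: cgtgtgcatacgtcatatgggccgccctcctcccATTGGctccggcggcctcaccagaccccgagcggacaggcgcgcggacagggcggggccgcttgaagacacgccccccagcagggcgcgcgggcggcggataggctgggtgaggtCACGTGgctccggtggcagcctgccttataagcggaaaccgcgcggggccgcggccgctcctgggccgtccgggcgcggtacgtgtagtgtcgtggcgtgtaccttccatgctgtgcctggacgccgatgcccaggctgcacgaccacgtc

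In the *Fasn* window CCAAT began 90, 62 and 59 bases before the start, with the last 2 overlapping on opposite strands, and in the *Insig1* window the E-box began 101 and CCAAT 216 bases before it. The windows of *Elovl6* and *Acly* were also read: that of *Elovl6* held no motif, and in that of *Acly* CCAAT lay only after the start. CCAAT was present in 9 of the 17 promoters found for the lipogenesis list (52.9%). It was present in 13 of the 15 found for the cholesterol list (86.7%), beside 37.9% of all 27025 promoters. CACGTG was present in 2 of the 17 and 4 of the 15, beside 7.24% of all promoters. The SRE motif of the SREBP factors was present in 0 of the 17 and 0 of the 15, beside 0.0851% of all promoters. These matches describe letters in a fixed window and were not compared by a test.

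The deposited values summed to between 20243688 and 28620744 per female. From the whole numbers that rounding left unused or filled more than once, the libraries were estimated to hold 20.28 to 27.5 M reads assigned to genes. The largest sum belonged to U9-KO female 3, whose estimated reads (21.67 M) were near the median of 21.665 M and whose estimated size factor was the lowest, 0.757. *Scd1* alone took 4.73% of the counts of that mouse and 0.398% to 2.3% of those of the others. U9-KO female 1 and WT female 4 carried the most ovarian-type RNA and U9-KO female 4 and WT female 3 the most oviduct-type RNA, so each of these marks was found in a library of either genotype.

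No gene differed between U9-KO and WT females at an adjusted p under 0.05 in limma's moderated test with Benjamini-Hochberg adjustment (0 of 17792, 0.0% of the genes tested), and no adjusted p was smaller than 1.0. Before adjustment 251 genes (1.41%) had a p under 0.05, 169 of them higher in U9-KO (0.95%) and 82 lower (0.461%). The share of 1.41% lies under 5%, the share that tests of genes without any difference give on average. Without the antibody genes 223 of 17702 genes had such a p (1.26%), 141 higher (0.797%) and 82 lower (0.463%). The mean was above that of WT for 9184 genes (51.6%). A difference beyond 1 on the log2 scale in either direction was reached by 267 genes (1.5%), 169 higher and 98 lower, or by 194 (1.1%) without the antibody genes. The groups did not overlap for 40 genes (0.225%), 32 higher and 8 lower in U9-KO.

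The differences were bounded more tightly for abundant genes than for rare ones. The 95% confidence interval of the log2 difference stayed within 1 on either side of 0, a change of less than 2-fold in normalized count + 1, for 14104 genes (79.3%). That share was 42.8% among genes with a mean of 10 to 50, 75.9% at 50 to 200, 92.6% at 200 to 1000 and 94.9% at 1000 to 5000. It was lower again, at 85.9%, among the 639 genes with a mean above 5000. With 1 mouse left out, 44 of the 47 list medians given here moved by over 1.5 times or changed sign for at least 1 choice of mouse, and 19 changed sign. The median SE was 0.18 and the median difference over all genes 0.006 on the log2 scale.

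Mice of the same genotype differed from each other far more than the genotypes did. Genotype accounted for a median of 4.69% of the variance of a gene over the 10 mice. The SD between mice had a median of 0.26 in WT and 0.29 in U9-KO, and was larger in U9-KO for 57.5% of the genes. Of the 4748 genes whose mean reached 1000, those with the largest SD within genotypes were of 2 kinds. The first were genes of ovarian tissue, such as *Cyp11a1*, which encodes the enzyme that opens steroid synthesis (pooled SD 2.38 on the log2 scale), and *Lhcgr*, the luteinizing hormone receptor (2.38). The second were lipogenic genes, such as *Elovl6* (2.15), *Acly* (2.02), *Fasn* (1.95) and *Acss2* (1.73). These genes were picked by their spread after the values were seen.

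*Elovl6*, which encodes an elongase of long fatty acids, had normalized counts of 15997, 10963, 581, 2099 and 3856 in WT females 1 to 5 and 20976, 25681, 71337, 942 and 8260 in U9-KO females 1 to 5. *Acly*, encoding the enzyme that turns citrate into cytosolic acetyl-CoA, had 71244, 71647, 4196, 6514 and 12899 in WT and 80469, 80755, 238318, 4578 and 45510 in U9-KO. Both genes were lowest in WT female 3 and U9-KO female 4 and highest in U9-KO female 3, so mice of both genotypes lay at the low end.

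**Figure D1:**
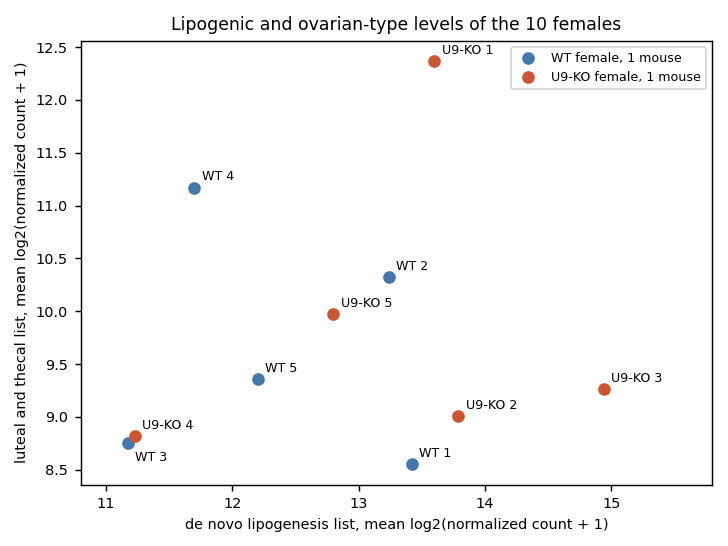
Mean log2(normalized count + 1) of the de novo lipogenesis list (x axis) and of the luteal and thecal list (y axis) in the 10 females, with 1 point per mouse coloured by genotype. The lipogenic level ran from 11.17 (WT female 3) to 14.94 (U9-KO female 3), and the luteal level was highest in U9-KO female 1 (12.37) and WT female 4 (11.17).

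De novo lipogenesis was the list with the largest median difference. All 20 of its genes had a higher mean in U9-KO, with a median of 0.82 on the log2 scale beside 0.006 over all genes, but 0 of the 20 had an unadjusted p under 0.05. *Fasn*, fatty acid synthase, had 423472, 398953, 18029, 38582 and 112571 in WT females 1 to 5 and 353643, 429828, 931443, 29690 and 196207 in U9-KO females 1 to 5. U9-KO female 3 lay far above the WT range and U9-KO female 2 just above it, and the difference was 1.19 ± 1.08 (95% interval -1.19 to 3.57, limma adjusted p = 1.0). *Scd1*, the desaturase that makes monounsaturated fatty acids, had 552069, 402277, 85092, 131556 and 205500 in WT and 456277, 495714, 1353006, 112234 and 211873 in U9-KO, a difference of 0.77 ± 0.73. *Elovl3*, an elongase of very long fatty acids, had the smallest p of the list (0.129), with 0, 0, 3, 5 and 0 in WT and 13, 25, 75, 0 and 0 in U9-KO. It was high in U9-KO females 1 to 3 and listed at 0 in the other 2.

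The mean level of the lipogenesis list was 13.42, 13.24, 11.17, 11.70 and 12.20 in WT females 1 to 5 and 13.60, 13.79, 14.94, 11.23 and 12.80 in U9-KO females 1 to 5. U9-KO females 1 to 3 lay above every WT mouse, U9-KO female 5 lay within the WT range, and U9-KO female 4 lay near the lowest WT mouse.

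The cholesterol list ran in the same direction as the lipogenic one. All 23 of its genes had a higher mean in U9-KO (median 0.67), and 0 of them had an unadjusted p under 0.05. Its level was 9.74, 10.07, 8.70, 9.36 and 9.10 in WT and 10.97, 9.88, 10.66, 8.81 and 9.82 in U9-KO, highest in U9-KO female 1, the mouse with the most luteal RNA. Luteal cells also use this pathway for steroid synthesis. Without U9-KO female 1 and WT female 4, the mice richest in luteal RNA, the cholesterol median was 0.42. The lipogenesis median was then 0.60, beside 0.82 with all mice. The part of luteal cells in the cholesterol difference was not tested. *Sqle*, squalene epoxidase, had 640, 798, 340, 448 and 369 in WT and 2077, 796, 1671, 316 and 869 in U9-KO. Its difference of 0.94 ± 0.46 had the smallest p of the list (0.0657). *Insig1*, which holds SREBP in the endoplasmic reticulum, had 7584, 6021, 1930, 2113 and 3641 in WT and 7492, 11054, 17020, 2079 and 3849 in U9-KO (0.81 ± 0.58). *Hmgcs1*, which makes the precursor of mevalonate, differed by 0.28 ± 0.27. Its 5 WT values lay between 4162 and 4757, and only U9-KO females 1 (9985) and 3 (7557) were clearly above them.

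**Figure D2:**
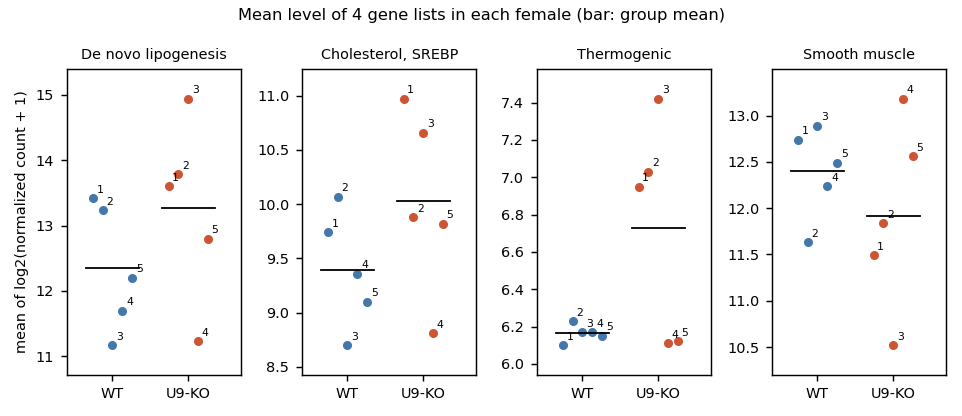
Mean log2(normalized count + 1) of 4 gene lists (y axes, different ranges) in WT and U9-KO females, with 1 numbered point per mouse and a bar at the group mean. U9-KO female 4 sits near the lowest WT mouse in the first 2 panels (11.23 and 8.81) and is the highest of all mice for smooth muscle genes (13.18).

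The number of members of these 2 lists with a small p depended on 1 U9-KO mouse. With U9-KO female 4 left out, 12 of 20 lipogenesis genes and 15 of 23 cholesterol genes were higher in U9-KO at an unadjusted p under 0.05, with medians of 1.34 and 1.00. Over all genes the number with such a p went from 251 (169 higher, 82 lower) to 818 (440 higher, 378 lower). The smallest adjusted p was 0.835, so no gene passed the threshold. The share of the genes tested that these 818 make up was not worked out. The 0.95% higher in the fit with all mice does not apply here. The counts of the 2 lists were not tested against those of the other genes. Of the 251 genes, 181 were among the 818, which is 72.1% of the first list and 22.1% of the second. For these counts no other single mouse had this effect: leaving out each of the other 9 in turn gave 0 or 1 lipogenesis genes and 0 to 3 cholesterol genes with such a p. The medians moved with other mice too. Without U9-KO female 3, the most lipogenic mouse, they were 0.46 (19 lipogenesis genes tested) and 0.46, without WT female 3 they were 0.54 and 0.49, and without U9-KO female 1 the cholesterol median was 0.45. U9-KO female 4 also carried the most smooth muscle and oviduct RNA, and the part of these tissues in its low lipogenic level was not tested.

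**Figure D3:**
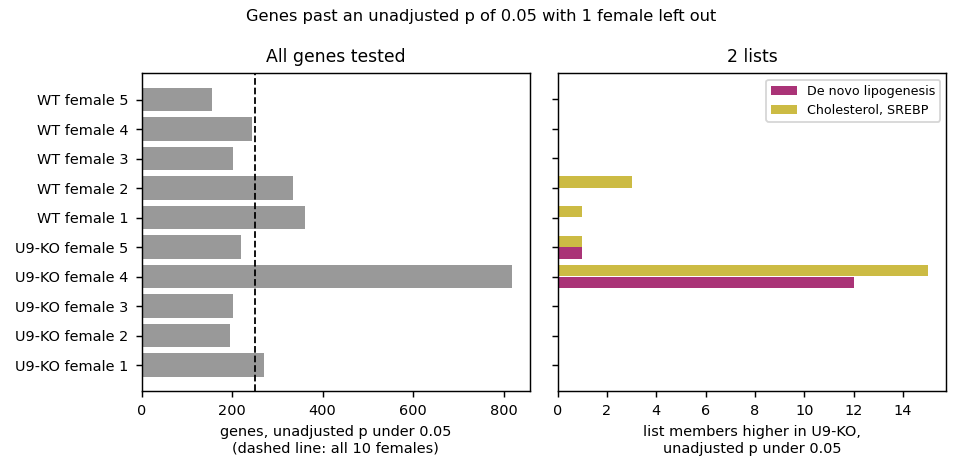
Number of genes with an unadjusted p under 0.05 when each of the 10 females was left out in turn, over all genes tested (left, dashed line at 251 for all 10 mice) and for members of 2 lists higher in U9-KO (right). Leaving out U9-KO female 4 gave 818 genes, and leaving out any other mouse gave 156 to 362.

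Genes of triglyceride synthesis had a smaller median (0.32, with 13 of 15 higher and 2 lower), which was 0.09 without U9-KO female 3. *Dgat2*, which completes triglyceride synthesis, had 51004, 54872, 5650, 6293 and 17508 in WT and 38143, 50698, 92090, 8478 and 39368 in U9-KO (1.02 ± 0.79). *Agpat2*, an earlier enzyme of the pathway that is mutated in a congenital lipodystrophy, differed by 0.96 ± 0.60. *Pck1*, the enzyme through which adipocytes make the glycerol backbone of triglyceride from small precursors in fasting, ran the other way, with 14694, 5427, 46591, 26705 and 39502 in WT and 6312, 8742, 13931, 34824 and 17902 in U9-KO (-0.61 ± 0.61). It was highest in WT female 3, where *Fasn* was lowest.

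Abundant genes of the mature adipocyte and its lipid droplet had differences near 0. *Adipoq*, which encodes adiponectin, differed by -0.06 ± 0.31 (95% interval -0.73 to 0.62), with 30644 to 72328 in WT and 27618 to 71968 in U9-KO. *Cfd*, the serine protease adipsin, differed by 0.23 ± 0.33. The lipid droplet coats *Plin1* and *Plin4* differed by 0.19 ± 0.29 and -0.07 ± 0.24, and *Cidec*, which fuses droplets, by -0.16 ± 0.27. None of these intervals reached 2-fold in either direction, while smaller differences were not detectable with 5 mice a group. Among adipokines 9 of 12 had a higher mean in U9-KO (median 0.38). The largest difference was that of *Lep*, the leptin gene (0.67). Of those higher, *Apln*, a vasoactive peptide gene, had the smallest p, with a difference of 0.55 ± 0.31. *Rarres2*, the chemerin gene, was lower by 0.32 ± 0.22 on average. Of 16 adipogenic transcription factors 11 were higher and 5 lower (median 0.06), and of 16 progenitor markers 8 were higher and 8 lower (median -0.01).

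In the whole lipolysis and lipid droplet list 10 of 16 genes were higher (median 0.10), and *Cidea* and *G0s2*, an inhibitor of triglyceride lipase, were higher at an unadjusted p under 0.05, beside 0.95% of all genes. *Plin2*, *Plin5* and *G0s2* differed by 0.47, 0.48 and 0.67. *Cidea*, a lipid droplet protein gene that is high in brown and beige fat, was the member of the lipid droplet and thermogenic lists with the smallest p (0.0203). It had 46, 17, 7, 14 and 17 in WT and 59, 111, 118, 30 and 18 in U9-KO, a difference of 1.60 ± 0.59. The 3 highest values were those of U9-KO females 1 to 3, with WT female 1 next. The thermogenic list as a whole (median 0.34, 11 of 12 higher) split the U9-KO group: its level was 6.10 to 6.23 in the 5 WT mice, 6.95, 7.03 and 7.42 in U9-KO females 1 to 3, and 6.11 and 6.12 in U9-KO females 4 and 5. *Elovl3*, which passed the filter only through its U9-KO values, is a member of both this list and the lipogenesis list. *Ucp1*, the defining gene of thermogenic fat, fell under the mean of 10 and was not tested.

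Genes of oxidative phosphorylation had small differences in 1 direction. All 36 nuclear members had a higher mean in U9-KO (median 0.16, range 0.03 to 0.34), as had all 13 mitochondrial-encoded transcripts (median 0.17), and none of them had an unadjusted p under 0.05. *Atp5b*, a catalytic subunit of ATP synthase, had 32243, 30329, 20754, 21598 and 24479 in WT and 25987, 31278, 43912, 21410 and 25210 in U9-KO (0.17 ± 0.21). U9-KO female 3 was the highest of all mice, and without it the medians of the 2 lists were 0.02 and -0.01. *Atp5a1* and *Uqcrfs1*, of the same synthase and of complex III, differed by 0.21 ± 0.19 and 0.28 ± 0.20.

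Clock output genes all had a higher mean in U9-KO (7 of 7, median 0.26) without any unadjusted p under 0.05. *Tef*, a transcription factor gene driven by the clock, had 1497, 1522, 1115, 1315 and 1638 in WT and 1375, 2892, 1458, 1367 and 1704 in U9-KO, so that U9-KO female 2 stood far above the other mice. Without it the list median was 0.07, and the difference in *Tef* with all mice was 0.26 ± 0.20. *Bhlhe40*, a clock repressor gene, differed by 0.40 ± 0.27. The time of day of collection is not given for single mice. Of the core clock genes 9 were higher and 5 lower (median 0.11).

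Few immune cell genes other than those of antibodies had a small p with all 10 mice. *Cd8a*, which marks cytotoxic T cells, had the smallest of the immune lists (0.00416). It had 10, 6, 15, 6 and 6 in WT and 23, 23, 18, 14 and 18 in U9-KO, a difference of 1.14 ± 0.31. The groups overlapped only through WT female 3 and U9-KO female 4. The WT mean of *Cd8a*, 8.6, lay under the filter of 10, which the gene passed only through its U9-KO values. The list of 16 T cell markers had a median of 0.17, and *Cd8a* was its only member with an unadjusted p under 0.05. Over all genes 0.95% were higher at such a p. B cell genes had a median of 0.09 (11 of 14 higher, with 2 antibody constant genes of the list left out), NK and cytotoxic genes 0.26 (8 of 9) and MHC class II genes 0.09 (9 of 10). Resident macrophage markers were lower on average in 15 of 17 cases, with a median of -0.14 and no p under 0.05. Without WT female 4, the mouse with the lowest level of these genes, 6 of 17 were lower at an unadjusted p under 0.05 and the median was -0.32. With any other single mouse left out no member had such a p. Over all genes 244 had such a p in either direction without WT female 4, beside 251 with all 10 mice.

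Plasma cell genes outside the antibody loci had a median of 0.24, with 9 of 11 higher and 2 of them at an unadjusted p under 0.05, beside 0.95% of all genes higher at such a p. *Mzb1*, a chaperone gene of antibody assembly, had 9, 17, 2, 5 and 8 in WT and 108, 19, 26, 11 and 10 in U9-KO (1.61 ± 0.67). Its highest value was that of U9-KO female 1. Its WT mean lay under 10, and *Mzb1* passed the filter only through its U9-KO values. *Xbp1* and *Txndc5*, secretory pathway genes that many other cells also use, differed by 0.06 ± 0.11 and -0.09 ± 0.12. *Irf4*, needed for plasma cells and also present in adipocytes in fasting, had 371, 274, 3064, 1800 and 619 in WT and 347, 319, 572, 1552 and 299 in U9-KO (-0.71 ± 0.69), highest in the mice low in lipogenic RNA. Of 90 antibody genes tested, 87 had a higher mean in U9-KO, with a median of 1.85 and 28 at an unadjusted p under 0.05, beside the same 0.95%. Some antibody genes passed the filter of 10 only through their U9-KO values, such as *Ighg1* and *Ighg2c* with WT means of 2.6 and 2.0. The counts and median of the antibody genes include such genes. *Jchain* and the constant region genes ranged from 0.36 to 4.90, with an adjusted p of 1.0 in limma for each.

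Contractile smooth muscle and matrix genes were lower on average in U9-KO. In the pericyte and smooth muscle list 9 of 12 were lower (median -0.65), although 0 had an unadjusted p under 0.05. The median was -0.17 without U9-KO female 3 and -1.07 without U9-KO female 4. *Actg2*, the actin of visceral smooth muscle, had 9837, 2968, 18509, 10099 and 9018 in WT and 2636, 2731, 458, 20699 and 12937 in U9-KO (-1.16 ± 0.92). U9-KO mice held both the lowest and the highest value. *Myh11* and *Acta2*, the smooth muscle myosin and actin, differed by -0.63 ± 0.64 and -0.66 ± 0.56. *Cspg4*, a pericyte marker also called NG2, ran the other way, with 1964, 1658, 729, 666 and 988 in WT and 1482, 2194, 4144, 1029 and 1577 in U9-KO (0.76 ± 0.40). In contrast to the contractile genes it was highest in U9-KO female 3.

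Collagen and matrix genes were lower in 23 of 28 cases (median -0.14). *Thbs1*, which encodes the matrix glycoprotein thrombospondin, was the only member with an unadjusted p under 0.05 (0.0333). It had 8896, 5914, 16659, 8836 and 8079 in WT and 4834, 2343, 1311, 9152 and 6994 in U9-KO, a difference of -1.21 ± 0.50. Over all genes 0.461% were lower at an unadjusted p under 0.05. *Sparc* and *Col3a1*, abundant matrix genes, differed by -0.13 ± 0.17 and -0.24 ± 0.26, and *Tgfb1* by 0.15 ± 0.17. Mesothelial genes, from the lining of the pad, were lower in 13 of 14 cases with the same median, and endothelial genes higher in 15 of 16 with a median of 0.13. In these lists the highest levels of matrix, smooth muscle and mesothelial genes were again those of U9-KO female 4 and WT female 3.

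*Acta1*, the actin of skeletal muscle that is also present in smooth muscle, had the smallest p of all genes lower in U9-KO (0.00339). It had 181, 230, 363, 543 and 302 in WT and 39, 66, 22, 167 and 178 in U9-KO, so that the groups did not overlap, which held for 8 of all genes in this direction (0.045%). The difference was -2.08 ± 0.56 (95% interval -3.31 to -0.85, limma adjusted p = 1.0) and lay between -2.41 and -1.67 with any 1 mouse left out. Of the 7 skeletal muscle genes tested, *Acta1* was the only one with an unadjusted p under 0.05, beside 0.461% of all genes lower at such a p. Of the other 6 genes 4 were also lower on average, and the list median was -0.39. The list level was 4.90, 4.38, 5.41, 4.81 and 5.07 in WT and 3.80, 3.77, 3.81, 5.29 and 4.93 in U9-KO, so that U9-KO females 1 to 3 lay under every WT mouse. These levels are low, and the fast myosin gene *Myh4* had a count of 1 in WT female 1 and 0 in the other females.

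RNA of ovary and oviduct varied between mice of both genotypes. Luteal and thecal genes had a median of 0.05 (9 of 15 higher), granulosa and oocyte genes -0.09 (7 of 18) and oviduct genes 0.23 (9 of 15), without any unadjusted p under 0.05. *Cyp11a1* had 597, 12991, 4310, 54629 and 14293 in WT and 71595, 1493, 1615, 3007 and 9197 in U9-KO (-0.49 ± 1.30). *Hsd3b1* and *Star*, of the same steroid pathway, differed by -0.90 ± 1.10 and -0.77 ± 0.74. *Ovgp1*, the oviduct glycoprotein, had 26, 55, 7684, 130 and 24 in WT and 106, 212, 22, 1256 and 47 in U9-KO (-0.05 ± 1.57). With the 2 mice richest in luteal RNA left out, 216 genes had an unadjusted p under 0.05, and with the 2 richest in oviduct RNA left out, 403, each time with 0 past the adjusted threshold. The part of attached reproductive tissue in any single difference was not tested.

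Nerve and Schwann cell genes were all higher on average in U9-KO (10 of 10, median 0.30). An unadjusted p under 0.05 was found for 3 of them, beside 0.95% of all genes higher at such a p, among them *Sox10*, the transcription factor of Schwann cells, and no member passed adjustment in limma. *Pmp22* and *Scn7a*, the most abundant members, which other cells also express, differed by 0.38 ± 0.24 and 0.22 ± 0.27. The list level ran from 7.02 to 7.60 in WT and from 7.36 to 8.43 in U9-KO, highest in U9-KO female 3.

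The 12 named genes with the smallest p among those higher in U9-KO were of low or middling abundance, with group means from 5.0 to 135.0. *Sirpb1a*, a signal regulatory receptor gene of myeloid cells, led them with 5, 9, 15, 7 and 11 in WT and 29, 22, 26, 17 and 38 in U9-KO, a difference of 1.43 ± 0.33 (limma adjusted p = 1.0). Its groups did not overlap, which held for 32 of all genes in this direction (0.18%). The named genes were picked by small p, which favours such separation. *Sirpb1a* has near-identical neighbours in a gene family, between which reads may have been split. *Cd300e*, an activating receptor gene of monocytes, had 8, 6, 6, 6 and 15 in WT and 31, 23, 24, 10 and 46 in U9-KO (1.53 ± 0.41). *Mylk2*, the myosin light chain kinase of skeletal muscle, had 5, 5, 5, 4 and 6 in WT and 10, 32, 24, 10 and 10 in U9-KO (1.44 ± 0.38), again without overlap. Among these 12 genes the WT means of *Mylk2* (5.0), *Mir1898* (7.8), *Cd300e* (8.2), *Cd8a* (8.6) and *Sirpb1a* (9.4) lay under 10. These genes passed the filter only through their U9-KO values.

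*Chl1*, a cell adhesion gene of nerve, had 72, 51, 82, 71 and 88 in WT and 92, 146, 132, 106 and 94 in U9-KO (0.64 ± 0.19), and *Frmd3* and *Rergl* differed by 0.72 ± 0.21 and 1.12 ± 0.35. These 3 genes, picked by small p, had no overlap between the groups, beside 0.18% of all genes in this direction. *Susd5* (1.06 ± 0.34), *Lonrf3* (0.45 ± 0.14) and *Jph1* (0.46 ± 0.15), which links the plasma membrane to calcium stores in muscle, overlapped. *Alkbh3os1*, without overlap (0.85 ± 0.27), lies antisense to *Alkbh3*, whose mean count was 354.1. The libraries were stranded, but whether the counting used strand is not given in the sources used here, so its reads are uncertain.

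*Mir1898* had 6, 9, 7, 6 and 11 in WT and 17, 11, 16, 13 and 19 in U9-KO (0.89 ± 0.28). Its hairpin lies on chromosome 15 at 12171492 to 12171574, inside *Zfr* (mean count 3036.5) and on the same strand. The libraries were made from polyadenylated RNA, so these reads do not measure the mature miRNA and may belong to *Zfr*. Its mature sequence (RefSeq, GRCm38.p6) is printed to identify the locus, with bases 2 to 8, the seed, in capitals.
mmu-miR-1898: aGGUCAAGguucacaggggauc

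Among the 12 named genes lower in U9-KO, *Acta1* and *Prss30* were the 2 whose groups did not overlap, beside 0.045% of all genes. *Prss30*, a serine protease gene, had 13, 11, 15, 17 and 16 in WT and 7, 4, 5, 6 and 10 in U9-KO (-1.10 ± 0.30, limma adjusted p = 1.0). Its U9-KO mean (6.4) lay under 10, as did those of *Mgat4c* and *Klhdc8a* (6.2 each). These genes passed the filter only through their WT values. *Vgll3*, a cofactor of TEAD transcription factors that is linked to adipocyte differentiation, had 981, 1191, 603, 810 and 757 in WT and 545, 384, 318, 660 and 655 in U9-KO (-0.78 ± 0.24). It was the most abundant of the 12, and its groups overlapped only through WT female 3. *Thsd7b* (-1.24 ± 0.44), *Mgat4c* (-2.04 ± 0.74), *Klhdc8a* (-1.63 ± 0.61), *Trim14* (-0.57 ± 0.21) and *Flvcr2* (-0.88 ± 0.33) overlapped more widely. WT female 4, rich in ovarian RNA, was the highest mouse for each of these 5. *Itgb3bp* (-0.39 ± 0.13), *Vstm4* (-0.39 ± 0.14), *Sdccag8* (-0.25 ± 0.09) and *Prox2* (-0.42 ± 0.16) had small differences with a narrow spread. *Itgb3bp*, *Thsd7b*, *Sdccag8* and *Trim14* overlap more abundant genes or pseudogenes on the other strand, so their reads are uncertain too.

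**Figure D4:**
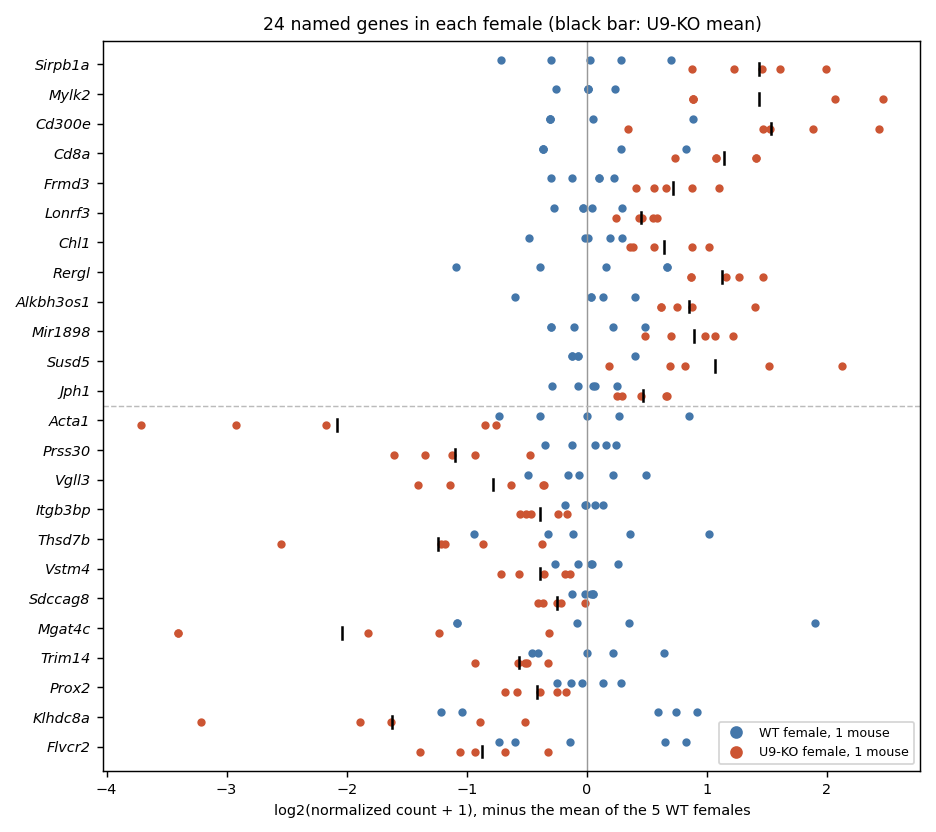
log2(normalized count + 1) of the 24 named genes in each female, as the distance from the mean of the 5 WT females (x axis), with WT in blue, U9-KO in red and a black bar at the U9-KO mean. The 12 genes above the dashed line were higher in U9-KO and the 12 under it lower, and in none did limma's adjusted p fall under 1.0.

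The same genes were set beside the 3 WT and 4 U9-KO males of the series, whose libraries share no mouse with the females. Fitted alone, the males had 0 of 16564 genes at an adjusted p under 0.05 (0.0%) and 1390 at an unadjusted one (8.39%). Among the 169 genes higher in females at an unadjusted p under 0.05, 138 were tested in males and 54 of them had a higher mean there (39.1%), beside 50.3% of all 16209 genes tested in both. With the antibody genes left out the count was 54 of 116 (46.6%). Of the 82 lower genes 72 were tested in males, and 25 were higher there (34.7%). *Acta1* differed by 0.81 ± 0.69 in males and *Cd8a* by -1.0 ± 0.55, both opposite to females, and *Vgll3* by -0.50 ± 0.28, in the same direction. The difference between the sexes was tested as an interaction: 0 of 17521 genes had an adjusted p under 0.05 (0.0%), 492 had an unadjusted p under 0.05 (2.81%), and the smallest adjusted p was 1.0.

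The lipogenic lists had positive medians in both sexes and the leukocyte lists did not. Lipogenesis had a median of 0.60 and cholesterol synthesis of 0.51 in males, with 0 members of either list at an unadjusted p under 0.05 for the sex difference. The lipogenesis level was 13.24, 11.79 and 12.31 in WT males and 13.04, 12.87, 13.11 and 12.91 in U9-KO males. WT male 1 thus lay above every U9-KO male, and the male groups overlapped for this list. MHC class II genes had a median of 0.09 in females and -0.60 in males, where all 9 tested were lower, and 6 of 10 had an unadjusted p under 0.05 for the difference, beside 2.81% of all genes. Pan-leukocyte genes had 0.10 and -0.45, with 5 of 12 at such a p, and no member of either list passed adjustment. The count for the pan-leukocyte list was 1 without WT male 2, while that for MHC class II lay between 4 and 8 with any 1 mouse left out. The mean MHC class II level was 9.62, 9.65, 9.33, 8.73 and 9.49 in the WT and 9.80, 9.32, 9.07, 9.42 and 9.81 in the U9-KO females, 9.37, 9.73 and 9.45 in WT males and 8.81, 9.03, 8.70 and 9.24 in U9-KO males. The male groups did not overlap and the female groups did. The spread between mice of a genotype was larger in females for 74.2% of the genes tested in both sexes, with a median pooled SD of 0.27 against 0.18.

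**Figure D5:**
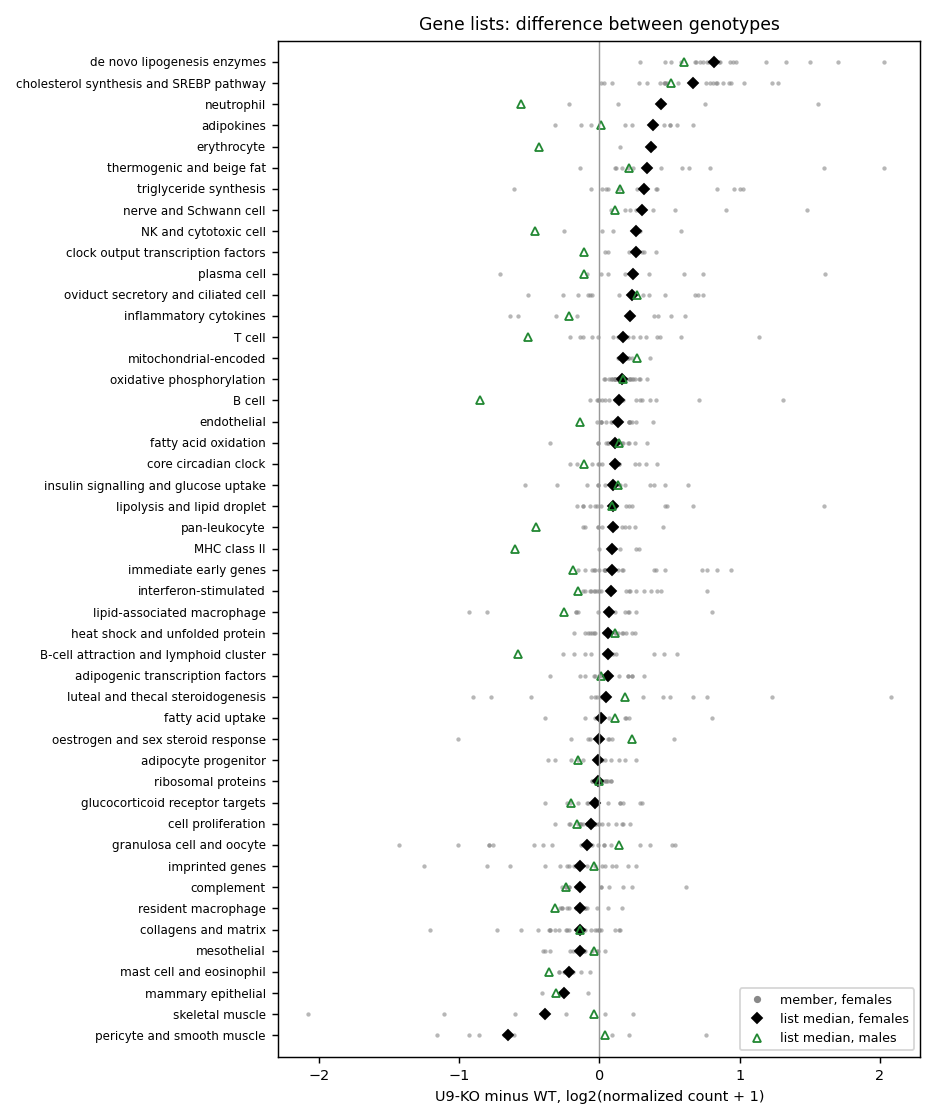
Difference between U9-KO and WT in log2(normalized count + 1) for the tested members of 47 gene lists in females (grey points), the list median in females (black diamonds) and in males (open green triangles). The female medians run from -0.65 (pericyte and smooth muscle) to 0.82 (de novo lipogenesis).

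The lists not described above had female medians between -0.25 (2 mammary epithelial genes) and 0.44 (4 neutrophil genes), with 0 members past the adjusted threshold in any of them. An unadjusted p under 0.05, always with a higher mean in U9-KO, was found for 2 of 25 interferon-stimulated and 1 of 20 immediate early genes. It was also found for 1 of 18 heat shock, 1 of 16 complement and 1 of 4 neutrophil genes. Over all genes 0.95% were higher at such a p, and these counts of 1 or 2 genes were not tested. Without U9-KO female 3 the neutrophil median was 0.01. Erythrocyte genes were higher in 6 of 6 cases (median 0.37, or 0.13 without U9-KO female 3 and 0.60 without U9-KO female 1), mast cell and eosinophil genes lower in 7 of 7 (-0.22, or 0.12 without U9-KO female 3), and imprinted genes lower in 13 of 19 (-0.14). Fatty acid uptake (0.01), insulin signalling (0.10), fatty acid oxidation (0.11), immediate early genes (0.09), heat shock genes (0.06), glucocorticoid targets (-0.03), cell proliferation (-0.06) and ribosomal proteins (-0.01) had medians near that of all genes.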

How the data were processed

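Stranded, poly(A)-enriched RNA-seq libraries of whole pWAT were made from 17 mice, of which the 5 WT and 5 U9-KO females were compared here. Reads were trimmed with trim_galore, aligned with STAR and counted per gene with summarizeOverlaps in Union mode. The submitters' processing notes name STAR 2.7.3a, DESeq2 1.28.1 and GRCm38. Each deposited value is a score: the authors divided the read count of a gene by the library's size factor, set within each sex, and rounded the quotient to a whole number, called a normalized count here. Depth was estimated from the whole numbers that this rounding skipped or filled more than once. The series table, which repeats these columns, was not used. For 2 male libraries the column name and the label give different replicate numbers, and the label was followed. GENCODE M21 named 55141 of 55401 gene identifiers.

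Genes with a mean of at least 10 were fitted on log2(normalized count + 1) in limma 3.58.1 (R 4.3.3) by lmFit and then eBayes with its trend option. A gene could pass this filter through 1 group alone. Each sex was fitted alone, and the sex difference in 1 fit of 17 libraries. Calls needed a p under 0.05 after Benjamini-Hochberg adjustment. A fold change on this scale understates that of low genes. The values are rounded quotients, so a count model was not used. Replicates are separate mice. The fits were tested on simulated data. Tables and plots were made in Python 3.11.15 with numpy 2.4.6, pandas 2.3.3, scipy 1.17.1 and matplotlib 3.10.9.

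The comparison, the 47 gene lists and the naming rule were chosen with earlier results of these data known. Named genes were, outside antibody genes and placeholder symbols, the 12 with the smallest p in each direction, and in lists described gene by gene the member with the smallest p each way and the 2 most abundant. Other genes were chosen after their values were seen. Some list members are not reported here by name. The alternatives were other filters, pseudocounts (0.5 and 4), scalings (TMM, quantile), vooma weights, robust or untrended empirical Bayes, all 17 libraries in 1 fit, B cell or luteal levels as covariates, a replicate block, and each mouse left out. Lipogenic and granulosa covariates and the fits without the 2 mice richest in luteal or in oviduct RNA were added after the data were seen.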

Additional observations from a re-analysis of the deposited data

Results flagged for a closer look

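In groups of 5 mice, a value was singled out where its gap to the nearest other mouse exceeded 0.71 of the group's range, Dixon's 95% critical value. Of 234 groups examined 24 held such a value, and chance gives about 1 in 20, or 11.7.

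Several belonged to U9-KO female 1 and WT female 4, the mice richest in ovarian RNA. In U9-KO female 1 these were *Star* at 8440, *Hsd3b1* at 45985, *Cyp11a1* at 71595, *Mzb1* at 108 and *Alkbh3os1* at 35. In WT female 4 they were *Cyp11a1* at 54629 and *Mgat4c* at 78, with low levels of pan-leukocyte (8.46), resident macrophage (8.80), complement (10.9) and mast cell and eosinophil genes (6.68).

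The oviduct gene *Ovgp1* stood apart at 7684 in WT female 3 and at 1256 in U9-KO female 4. WT female 3 was also high for *Thbs1* (16659) and low in clock output genes (7.71). U9-KO female 4 was also high for *Irf4* (1552) and low in NK and cytotoxic genes (4.03).

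Single values elsewhere were *Cd300e* at 15 and *Susd5* at 35 in WT female 5, *Cidea* at 46 in WT female 1, erythrocyte genes at 9.28 in WT female 2 and *Tef* at 2892 in U9-KO female 2. The summed counts of U9-KO female 3 (28620744) and the estimated reads of U9-KO female 5 (25.2 M) also stood apart from their group.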

How the results depend on the processing

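In females 0 genes passed the adjusted threshold under every alternative run. The number with an unadjusted p under 0.05 was 251 as reported and moved with the filter on low values, to 873 with no filter, 553 with a total of at least 10 and 144 with a mean of at least 50, where other numbers of genes were tested. It was 401 with the granulosa level as a covariate, 453 with the luteal and lipogenic levels together and 403 without the 2 mice richest in oviduct RNA, and it ran from 156 (without WT female 5) to 818 (without U9-KO female 4) with 1 mouse left out; the cause was not tested. The sex difference had 1 gene past the adjusted threshold and 1167 at an unadjusted p under 0.05 with no filter. That gene, *Lrp8os1*, had counts of 3, 2 and 2 in WT males and 0 in all other mice. Same-numbered mice did not deviate together (correlations from -0.445 to 0.11), so the numbers were not taken as pairs. A replicate block gave 0 genes past the adjusted threshold and 209 at an unadjusted p under 0.05, and 0 and 396 for the sex difference.

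Signs turned mainly for differences smaller than their SE. With the lipogenic level as a covariate, and with it and the luteal level together, the log2 difference was -0.19 and -0.18 for *Scd1*, -0.28 and -0.28 for *Fasn*, 0.02 and 0.07 for *Pck1*, -0.02 and -0.01 for *Dgat2*, -0.07 and -0.03 for *Plin1*, -0.08 and -0.07 for *Atp5b*, -0.03 and -0.02 for *Atp5a1*, 0.00 and 0.02 for *Irf4*, 0.05 and 0.04 for *Txndc5*, -0.01 and -0.01 for *Tgfb1* and *Uso1*, 0.01 and 0.03 for *Col3a1*, 0.14 and 0.18 for *Myh11*, 0.06 and 0.09 for *Acta2*, -0.08 and -0.05 for *Scn7a* and 1.58 and 1.64 for *Ovgp1*. It was 0.01 for *Actg2* with both. These 2 covariates hold some of the same genes as the results. The lipogenic one was the mean level of all genes of the lipogenesis list, *Fasn* and *Scd1* among them. The mean difference over that list was therefore fixed in advance by the fit, and its median under this covariate carries no information. The list medians under the 2 covariate settings were -0.03 and -0.03 for lipogenesis, 0.09 and 0.06 for cholesterol synthesis and -0.02 and -0.01 for triglyceride synthesis. For pericyte and smooth muscle genes they were 0.01 and 0.05. With 1 mouse left out, medians ranged from 0.16 to 0.42 for adipokines, 0.17 to 0.47 for thermogenic, 0.18 to 0.45 for nerve, 0.09 to 0.37 for plasma cell, -0.26 to -0.05 for matrix, -0.26 to 0.00 for mesothelial, 0.00 to 0.20 for endothelial, -0.07 to 0.17 for MHC class II and -0.48 to 0.52 for luteal genes. *Cfd* was -0.04 under quantile normalization, *Adipoq* 0.03 with the luteal level and *Tgfb1* -0.02 without the 2 mice richest in luteal RNA. *Ovgp1* was 0.07 with the B cell or luteal level, and 0.01 and 0.59 without the 2 mice richest in luteal or oviduct RNA. With 1 mouse left out the range was -0.28 to 0.07 for *Cidec*, -0.02 to 0.33 for *Plin1*, -0.29 to 0.03 for *Plin4*, -0.25 to 0.17 for *Adipoq*, -0.02 to 0.11 for *Xbp1*, -1.42 to 0.22 for *Cyp11a1*, -0.88 to 1.42 for *Ovgp1* and -0.24 to 0.11 for *Ppef2*. Depth of 20.28 to 27.5 M estimated reads limits genes with a mean of 10 to 50, where 42.8% of intervals stayed within 1 on the log2 scale.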
